A study of Mus musculus with 18 samples.

Results

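The prostate secretory protein genes described here are Pbsn, Azgp1, Agr2, Wfdc3, Cdcp3, Msmb and Tgm4, which are 7 of the 18193 genes that had a probe set of their own on the array. A probe set is a group of short oligonucleotides that reads 1 transcript, and a probe set was taken where its only gene symbol was one of these genes. That gave 9 probe sets of 45037, because Agr2 and Wfdc3 have 2 each and the other genes have 1, and no filter on low values was applied. For each gene the probe set with the highest mean over all arrays stands for the gene, and the second ones are given beside it.

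The series compared normal mouse prostate with tumours of TRAMP mice, a transgenic model of prostate adenocarcinoma. The labels describe 9 normal prostates, from which the ventral and the dorsolateral lobes were taken, and 9 TRAMP tumours, and they give no strain, age, castration or treatment for either group. Each sample's total RNA went onto an Affymetrix array of its own. In TRAMP mice the transgene that encodes the viral oncoproteins is itself driven by a promoter of the rat probasin gene, so the driver of the model and the first of the genes here share a kind of regulatory sequence.

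The prostate is a gland whose luminal epithelial cells make and release proteins into the seminal fluid. Many of these proteins depend on androgen, and in mice each pair of lobes makes its own mixture of them. Pbsn encodes probasin, a secreted protein of the lipocalin family and a classical androgen-dependent product of the rodent prostate. Azgp1 encodes zinc alpha-2-glycoprotein, a secreted protein with a fold like that of class I histocompatibility molecules. Msmb encodes beta-microseminoprotein, an abundant protein of seminal fluid. Tgm4 encodes the prostate transglutaminase, which cross-links seminal proteins into the copulatory plug, and is known in mice above all from the anterior lobe, the coagulating gland. Wfdc3 encodes a protein with the whey acidic protein fold found in many protease inhibitors, Cdcp3 a protein with CUB domains, and Agr2 a disulfide isomerase of the endoplasmic reticulum that helps secretory proteins fold.

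RefSeq start sites on GRCm38.p6 were matched for 6 of the 7 genes, all but Msmb. The 3 sequences shown are the 250 bases before the start site of Pbsn and Cdcp3, called lower in tumours, and of Tgm4, not called. They read 5′ to 3′ on the strand of the gene, and capitals mark AGAACA, an arm of the androgen response element, or TATAAA, the TATA box. Azgp1, Agr2 and Wfdc3, also called lower but not shown, have no AGAACA on either strand in their 250 bases. The sequences shown therefore do not stand for all genes called lower. Pbsn lies at chrX:77853501-77853750 on the minus strand, Cdcp3 at chr7:131174152-131174401 on the plus strand and Tgm4 at chr9:123034491-123034740 on the plus strand.
Pbsn: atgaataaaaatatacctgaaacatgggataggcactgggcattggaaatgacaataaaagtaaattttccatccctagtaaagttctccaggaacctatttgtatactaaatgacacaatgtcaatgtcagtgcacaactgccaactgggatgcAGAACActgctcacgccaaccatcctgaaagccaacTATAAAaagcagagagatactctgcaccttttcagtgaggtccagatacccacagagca
Cdcp3: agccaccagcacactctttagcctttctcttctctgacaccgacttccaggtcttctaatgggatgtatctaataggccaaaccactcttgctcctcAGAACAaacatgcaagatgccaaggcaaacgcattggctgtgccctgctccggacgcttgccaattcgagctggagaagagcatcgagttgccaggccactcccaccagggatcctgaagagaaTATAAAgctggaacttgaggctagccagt
Tgm4: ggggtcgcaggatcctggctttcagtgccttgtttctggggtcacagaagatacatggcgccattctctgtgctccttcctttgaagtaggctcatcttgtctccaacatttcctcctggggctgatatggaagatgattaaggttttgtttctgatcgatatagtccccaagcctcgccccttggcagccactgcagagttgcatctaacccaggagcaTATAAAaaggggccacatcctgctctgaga

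Motifs were searched on both strands in the window from 250 bases before to 50 bases after the start site. AGAACA, or TGTTCT on the other strand, was found in 4 of the 6 members, against 19.0% of 32851 promoters of the same length. In Pbsn it began 95 bases before the start site (position -95) and in Cdcp3 at -153. In Azgp1 the match lay after the start site, at position 15, and in Wfdc3 at positions 17 and 39, all read as TGTTCT on the strand of the gene. TATAAA, or TTTATA on the other strand, was found in 3 of 6 members, Pbsn at -59, Cdcp3 at -29 and Tgm4 at -30, against 13.6% of promoters. TGTTTAC and TGTTTGC, forms of the forkhead motif, were in none of the 6 windows and in 3.65% and 5.07% of promoters. A match of so few letters is a description of the window and not a binding site. The Agr2 window, of a gene called lower, held none of these motifs.

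All values are log2(intensity + 16), which makes the folds of dim genes too small, and levels of different probe sets are not compared. Dim values are those under the 40th percentile of the array they were read on. The labels do not say whether samples within a group were separate animals. The p-values therefore cover only the spread among these samples, and the number of arrays limits the precision. In tissue RNA, fewer cells of a type and less RNA per cell cannot be told apart. Several arrays stood apart. Correlations between arrays were taken over the 27294 probe sets above the 40th percentile in at least 9 arrays. The array labelled normal prostate 9 correlated at most at r = 0.842 with other normal prostates and at 0.882 with tumour 7. Its mean over 8 seminal vesicle genes was 10.5 where the other normal prostates had 5.62 to 7.23. Tumours 3, 5 and 7 had 14.2 to 15.5 on that list, tumours 6 and 8 had 9.93 and 10.1, and the other 4 tumours had 5.24 to 7.70. Tumours 6 and 8 were the most alike of all 153 pairs of arrays (r = 0.960), with no identical columns. Tumours 1 and 9 had 8.71 and 7.21 as the mean of 16 luminal epithelial genes, against 11.6 to 12.5 in the other 16 arrays. The arrays also fell into 2 sets by their spiked-in RNA controls, at 9.65 to 12.3 in the first (normal prostates 1 to 6, tumours 1 to 5) and 4.94 to 5.35 in the second (normal prostates 7 to 9, tumours 6 to 9), and these sets are used as technical batches. Counts are given with and without the arrays that stand apart.

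The secretory genes were lower in tumours than in normal prostate. Of the 9 probe sets, 7 were lower at an adjusted p under 0.05 and 0 were higher, in limma with Benjamini-Hochberg adjustment over 45037 probe sets, of which 5.32% were lower and 6.16% higher. By gene, 6 of 7 were lower, against 7.44% of 18193 genes lower and 6.91% higher. The exceptions were Tgm4, which was dim in 5 of the 9 normal prostates, and the second probe set of Wfdc3. The median difference of the 7 genes was -5.81, beside -0.0036 over all genes. The members were chosen with earlier results of these data known, so these counts and medians describe them and are no independent support. The dot plot of the 9 probe sets shows the values array by array.

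**Figure D1:**
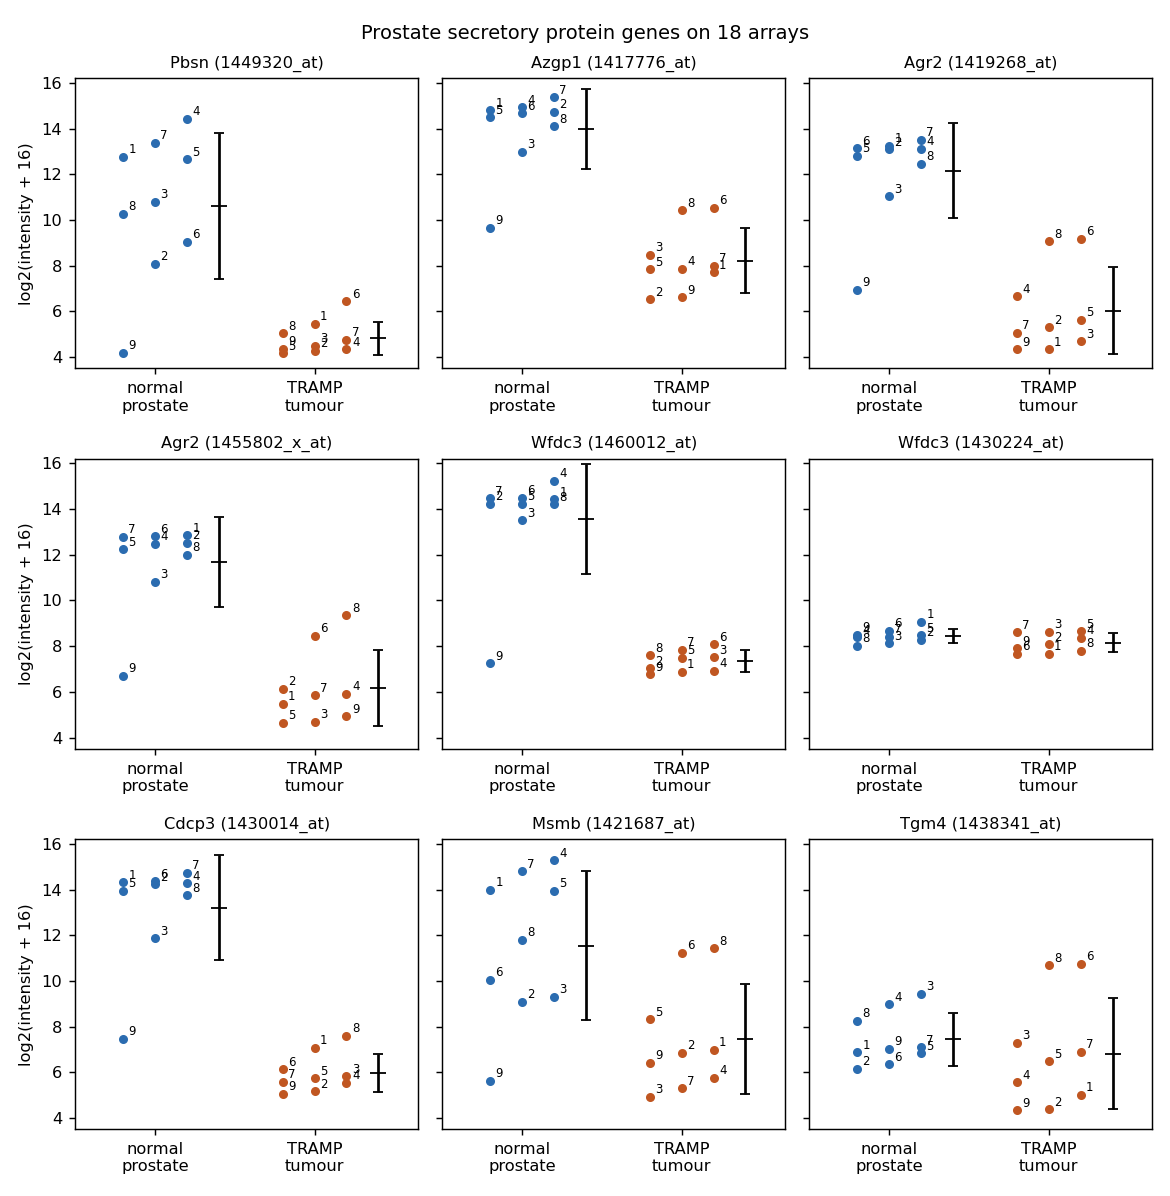
Log2(intensity + 16) of the 9 probe sets in 9 normal prostates (blue) and 9 TRAMP tumours (orange), 1 point an array with its replicate number, and the group mean with its SD in black. Normal prostate 9 lies inside the range of the tumours in all 9 probe sets, and tumours 6 and 8 sit above the other tumours in Azgp1, Agr2, Msmb and Tgm4.

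Pbsn, the probasin gene, ranged from 4.18 to 14.43 in normal prostate with a median of 10.79, and from 4.17 to 6.44 in tumours with a median of 4.49. All 9 tumours were dim, and so was normal prostate 9, whose value lay between those of tumours 5 and 2. The other 8 normal prostates, at 8.08 or more, all lay above every tumour. The means were 10.62 ± 3.19 and 4.81 ± 0.74 (SD, n = 9 each), a difference of -5.81 ± 0.998 (SE; limma adjusted p = 0.00107; two-sided exact permutation p = 0.00037). Because every tumour was dim, the fold is a bound, and Pbsn was at least 10.9-fold lower in tumours. Without normal prostate 9 the difference was -6.61 ± 0.72 (limma adjusted p = 1.73e-05).

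Msmb, which encodes beta-microseminoprotein, also varied widely among normal prostates, from 5.63 to 15.29 with a median of 11.81. Tumours ranged from 4.94 to 11.43 with a median of 6.86, and 6 of the 9 were dim. The groups overlapped: tumours 6 and 8, at 11.22 and 11.43, lay above normal prostates 2, 3, 6 and 9. The difference of the means, 11.55 ± 3.25 against 7.47 ± 2.40 (SD, n = 9 each), was -4.08 ± 1.23 (SE; limma adjusted p = 0.0372; exact permutation p = 0.0100). That call was close to the threshold. It was lost on leaving out any 1 of normal prostates 1, 4, 5, 7 and 8 or tumours 1, 2, 3, 4, 7 and 9, with differences of -3.61 to -4.04 and limma adjusted p from 0.0559 to 0.0740. It was kept without normal prostate 9 (-4.82 ± 1.09, limma adjusted p = 0.00689).

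Pbsn and Msmb ordered the normal prostates in much the same way. Normal prostates 4, 7, 1 and 5 were the top 4 of both, in that order. In Pbsn they had 14.43, 13.38, 12.76 and 12.66, and in Msmb 15.29, 14.81, 13.99 and 13.94. Normal prostates 2 and 6 had 8.08 and 9.05 in Pbsn and 9.09 and 10.04 in Msmb, among the lowest of the 8 that do not stand apart. After the mean of each group was subtracted, the 2 genes correlated at r = 0.833 over 18 arrays, a description in which normal prostate 9 and tumours 6 and 8 take part. In tumours 6 and 8 Msmb was near the median of normal prostate, while Pbsn was dim, at 6.44 and 5.03. Tumour 6 still had the highest Pbsn of the tumours, all of which were dim, and dim values are noisy.

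Azgp1, Agr2, Wfdc3 and Cdcp3 had a steadier level in normal prostate. Their SD over normal prostates 1 to 8 was 0.72, 0.78, 0.47 and 0.89, where Pbsn had 2.23 and Msmb 2.54. Normal prostate 3 was the lowest of those 8 arrays in all 4 genes. That array also had the highest mean of 6 urothelium genes among the normal prostates, 13.2, and tumour 4 had 13.1. Normal prostate 5 came next among the normal prostates, at 11.2, and was not left out. Normal prostate 1 had the highest mean of 12 skeletal muscle genes, 13.4. Without normal prostates 1 and 3 and tumour 4, an alternative chosen after the data were seen, 6 of 9 probe sets were lower, against 4% of all. Azgp1 then had -5.73 ± 0.81, Agr2 -6.20 ± 1.004, Wfdc3 -6.05 ± 0.89, Cdcp3 -7.23 ± 0.87 and Pbsn -5.42 ± 1.15, and Msmb had -3.83 ± 1.39 and was not called (limma adjusted p = 0.102).

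Azgp1, for zinc alpha-2-glycoprotein, ranged from 9.66 to 15.37 in normal prostate (median 14.67) and from 6.53 to 10.55 in tumours (median 7.88). Normal prostate 9 was the lowest of its group and lay below tumours 6 and 8, at 10.55 and 10.43. The other 8 normal prostates, at 12.98 or more, were above every tumour. The means of 13.97 ± 1.75 and 8.22 ± 1.43 (SD, n = 9 each) differed by -5.75 ± 0.69 (SE; limma adjusted p = 8.48e-05; exact permutation p = 0.000123). That is a fold of 53.7 on this scale. The difference was -6.29 ± 0.52 when normal prostate 9 was left out.

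Agr2, for the disulfide isomerase, ranged from 6.95 to 13.51 in normal prostate (median 13.09) and from 4.33 to 9.18 in tumours (median 5.30). Tumours 6 and 8 had 9.18 and 9.07, and 7 of the 9 tumours were dim. Those 2 tumours exceeded normal prostate 9, while the other 8 normal prostates lay above every tumour. The difference was -6.12 ± 0.86 (SE, n = 9 each; limma adjusted p = 0.000225; exact permutation p = 0.000165), and -6.77 ± 0.66 without normal prostate 9. The second Agr2 probe set gave -5.54 ± 0.79 (limma adjusted p = 0.000246), with means of 11.69 ± 1.97 and 6.16 ± 1.66.

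Wfdc3, for the whey acidic protein fold, ranged from 7.25 to 15.24 in normal prostate (median 14.24) and only from 6.77 to 8.08 in tumours (median 7.50). Normal prostate 9 lay inside the tumour range, above 4 of the 9 tumours, and the other 8 normal prostates were all at 13.51 or more. The means were 13.57 ± 2.41 and 7.35 ± 0.47 (SD, n = 9 each), and the difference was -6.22 ± 0.75 (SE; limma adjusted p = 8.48e-05; exact permutation p = 0.000247). With that array left out it was -7.00 ± 0.23. The second probe set of Wfdc3 did not show this: it read 8.43 ± 0.31 in normal prostate and 8.15 ± 0.42 in tumours, a difference of -0.28 ± 0.18 (limma adjusted p = 0.352). With the 2 probe sets averaged, the Wfdc3 difference was -3.25 ± 0.39 (limma adjusted p = 8.59e-05). Which of them reads the transcript made in the gland was not tested.

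Cdcp3, for the CUB domain protein, was high in normal prostates 1 to 8 and low in every tumour. It ranged from 7.46 to 14.73 in normal prostate (median 14.24) and from 5.07 to 7.60 in tumours (median 5.74), and 8 of the 9 tumours were dim. Only tumour 8, at 7.60, lay above normal prostate 9, and the other 8 normal prostates were at 11.86 or more. The means of 13.21 ± 2.31 and 5.97 ± 0.85 (SD, n = 9 each) differed by -7.24 ± 0.75 (SE; limma adjusted p = 2.96e-05; exact permutation p = 8.23e-05). With 8 tumours dim, no fold is given. Leaving out that normal prostate gave -7.96 ± 0.39.

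Tgm4, for the transglutaminase, was the gene without a call. It ranged from 6.15 to 9.45 in normal prostate (median 7.03) and from 4.34 to 10.76 in tumours (median 6.47), and was dim in 5 normal prostates and 6 tumours. Tumours 6 and 8, at 10.76 and 10.68, were the highest of all 18 arrays, followed by normal prostates 3, 4 and 8 at 9.45, 8.98 and 8.26. The difference of the means, 7.45 ± 1.17 against 6.82 ± 2.44 (SD, n = 9 each), was -0.63 ± 0.83 (SE; limma adjusted p = 0.680; exact permutation p = 0.495). Normal prostate 9, low in the other 6 genes, had 7.03 here, the median of its group. Without the 6 arrays with high seminal vesicle genes (normal prostate 9, tumours 3, 5, 6, 7 and 8) the Tgm4 difference was -2.68 ± 0.59 (limma adjusted p = 0.00679, 8 against 4 arrays). That omission takes out tumours 6 and 8, the highest Tgm4 arrays. With those 2 kept and the other 4 arrays left out, the difference was -0.71 ± 1.06 (limma adjusted p = 0.703).

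Every normal prostate exceeded every tumour in 0 of the 7 genes and in 0.409% of all probe sets. Leaving out normal prostate 9 made that 5 of 7, Pbsn, Azgp1, Agr2, Wfdc3 and Cdcp3, against 1.06% of all probe sets. The overlap in these 5 genes was that of 1 array with the tumours. In that fit 7 of the 9 probe sets were lower, against 6.62% of all. Without normal prostate 9 and tumours 3, 5, 6, 7 and 8, 8 of 9 were lower, against 10.4%, the eighth being Tgm4. With tumours 6 and 8 kept in, 7 of 9 were lower, against 7.77%.

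Tumours 6 and 8 stood above the other tumours more clearly in some genes than in others. Both held Azgp1, Agr2, Msmb and Tgm4 above the other 7 tumours, which reached at most 8.48, 6.66, 8.32 and 7.28. In Wfdc3 the same tumours had 8.08 and 7.60, and tumour 7 lay between them at 7.85. In Cdcp3 they had 6.13 and 7.60, with tumour 1 between them at 7.08. In Pbsn, dim in every tumour, they had 6.44 and 5.03, with tumour 1 between them at 5.45. So 1 of the pair was the highest tumour in each of these genes, but the pair was not above all the others. With tumours 6 and 8 averaged as 1 sample, an alternative chosen after the data were seen, 7 of 9 probe sets were lower, against 5.26% of all. After the group means were subtracted, Azgp1 and Agr2 correlated at r = 0.937, Wfdc3 and Cdcp3 at 0.906, and Tgm4 with the other 6 genes at 0.136 to 0.525, over 18 arrays that include normal prostate 9. The scatter plots of 3 pairs show these relations.

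**Figure D2:**
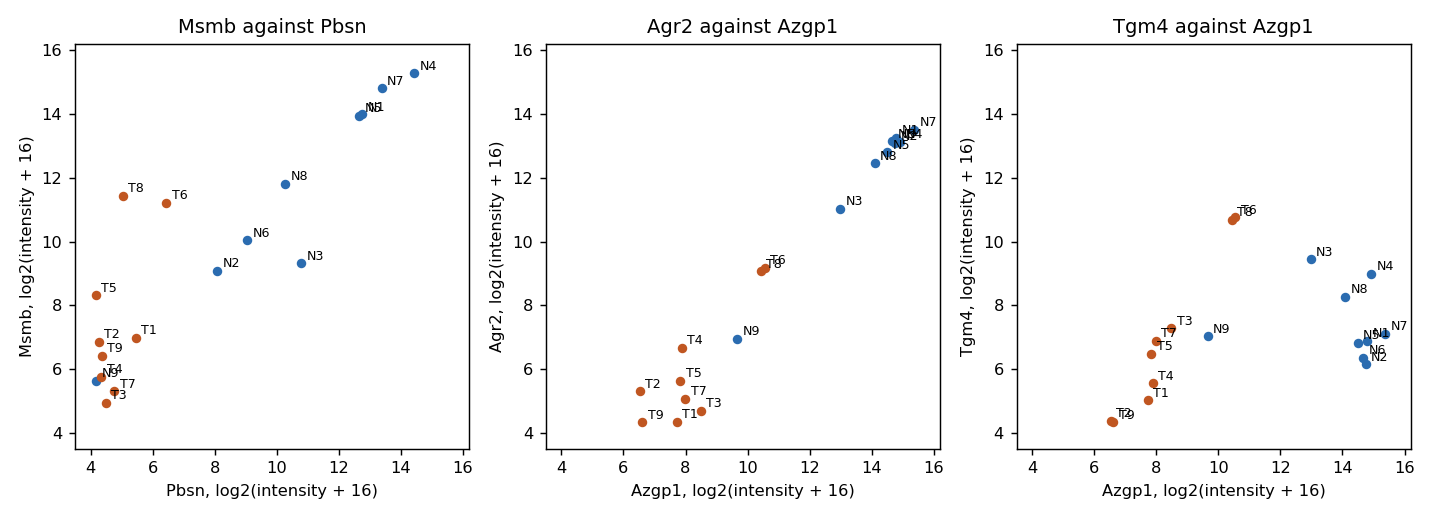
Log2(intensity + 16) of Msmb against Pbsn, Agr2 against Azgp1 and Tgm4 against Azgp1, 1 point an array (N, normal prostate, blue; T, TRAMP tumour, orange). Msmb follows Pbsn among normal prostates, Agr2 follows Azgp1 over both groups with tumours 6 and 8 between them, and Tgm4 is highest in tumours 6 and 8.

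Of 16 general marker genes of luminal epithelium 0 were lower and 0 higher in tumours in limma. Over all genes 7.44% were lower and 6.91% higher, so for a list of 16 these counts are near the shares over all genes. The median difference of the 16 genes was -1.04. Esrp1 had -1.81 ± 0.86, Rab25 -1.20 ± 0.59 and Spint1 -1.16 ± 0.56, while Prom1 went the other way, at 2.18 ± 0.93. The mean of the 16 genes was 11.7 to 12.4 in normal prostate and 7.21 to 12.5 in tumours. Tumour 2, at 12.2, and normal prostate 9, at 11.9, lay within the luminal range of normal prostate. The mean of the 7 secretory genes was 5.65 in tumour 2 and 6.88 in normal prostate 9, where it was 11.3 to 13.8 in normal prostates 1 to 8 and 5.41 to 8.91 in tumours. Without tumours 1 and 9, an alternative chosen after the data were seen, 6 of 9 probe sets were lower, against 3.54% of all: Cdcp3 had -7.27 ± 0.83, Wfdc3 -6.06 ± 0.84, Pbsn -5.84 ± 1.12, Agr2 -5.64 ± 0.91 and Azgp1 -5.44 ± 0.75. Msmb then had -3.86 ± 1.38 (limma adjusted p = 0.0960) and Tgm4 -0.015 ± 0.83. Centred on the luminal keratins Krt8 and Krt18, 6 of the 9 probe sets were still lower, against 0.0933% of all probe sets. This centring moved the median difference of all probe sets from 0.0264 to 1.18. The mean of the 2 keratins was 9.46 in tumour 1 and 7.38 in tumour 9, against 13.2 to 14.6 in the other arrays. Relative to the keratins the differences were -6.09 for Cdcp3, -5.06 for Wfdc3, -4.97 for Agr2, -4.65 for Pbsn, -4.59 for Azgp1 and -2.92 for Msmb, each ± 0.90 (SE). Msmb was no longer called (limma adjusted p = 0.0703). In this setting limma gave all 9 probe sets the same SE, so its calls do not reflect the spread of each gene. The centring adds the same amount to every difference, so Tgm4 at 0.53 (limma adjusted p = 0.611) stood as far below the median of all probe sets as without it.

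**Figure D3:**
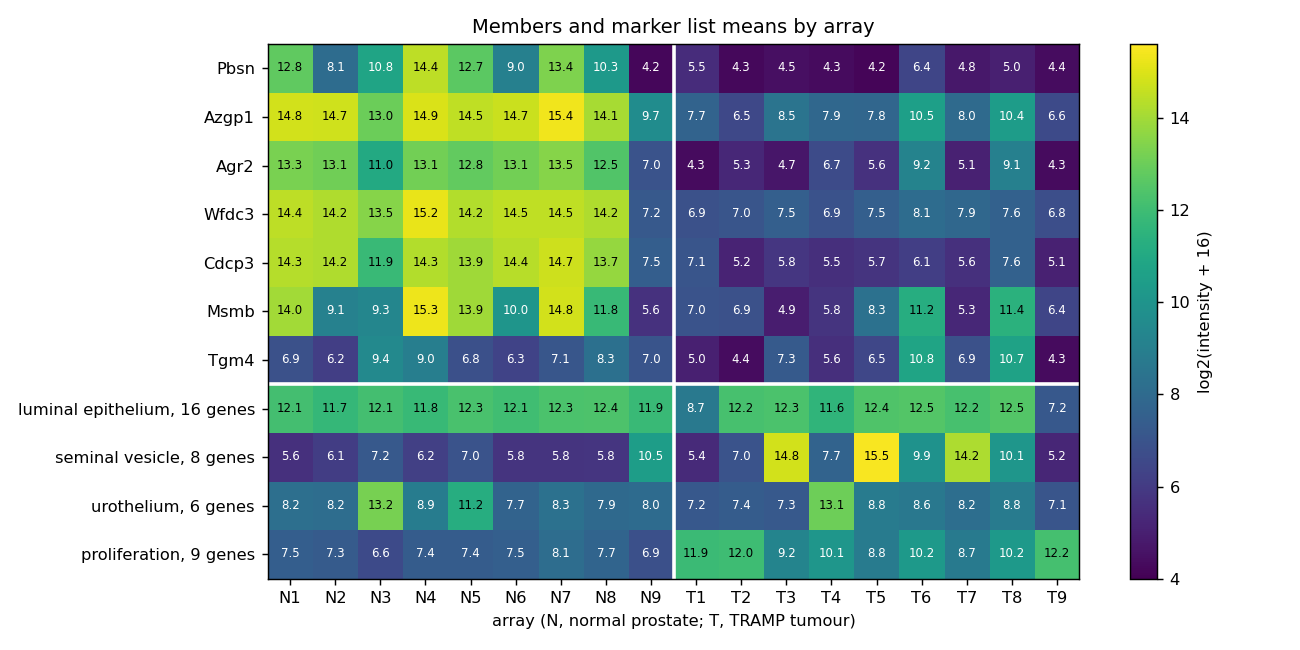
Log2(intensity + 16) of the 7 genes, and the means of 4 marker lists on the same scale, in each of 9 normal prostates (N) and 9 TRAMP tumours (T). The luminal mean is 11.6 or more in all arrays but tumours 1 and 9, while the secretory genes above Tgm4 are low in normal prostate 9 and in most tumours.

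Marker genes of other cells and of cell division are read against all genes, of which 7.44% were lower and 6.91% higher. Proliferation genes were higher for 9 of 9 measured, with means of 6.61 to 8.13 in normal prostate and 8.72 to 12.2 in tumours. Adipocyte genes were lower for 6 of 7, with means of 6.34 to 12.7 in normal prostate and 6.08 to 9.21 in tumours, and their part in the result was not tested. Fibroblast genes were higher for 3 of 8, with means of 8.54 to 11.1 and 10.1 to 11.7, and macrophage genes for 2 of 8, with means of 7.92 to 10.04 and 9.002 to 11.8. Of 14 neuroendocrine genes 1 was higher, a share near that over all genes, and it was Ncam1 at 2.85 ± 0.55. The mean of the 14 genes was 10.2 and 10.4 in tumours 1 and 9, against at most 7.02 in normal prostate. Of 12 skeletal muscle genes 2 were lower, Myh1 at -3.93 ± 0.87 and Myh2 at -2.20 ± 0.56. Of 6 urothelium genes 1 was lower, Upk1a at -2.48 ± 0.68. Of 9 smooth muscle genes 0 were called, but their mean varied among arrays. It was highest in normal prostates 9, 5 and 3 (13.04, 12.98 and 12.81) and in tumours 7, 6 and 8 (13.30, 13.14 and 13.01). The medians were 10.64 in normal prostate and 11.39 in tumours. Of 8 seminal vesicle genes 0 passed the test. With the seminal vesicle mean as a covariate 6 of 9 probe sets were lower, against 8.04% of all, and Msmb was -3.38 ± 1.42 (limma adjusted p = 0.113). The log2 ratio of 3′ to 5′ actin probe sets, which grows as RNA degrades, was 0.313 to 2.48 in normal prostate, lowest in normal prostate 9, and 0.460 to 2.18 in tumours. Its mean was higher in normal prostate, 1.71 ± 0.69 against 1.12 ± 0.51 (SD, n = 9 each), so it moved with the groups. With it as a covariate 6 of 9 were lower, against 2.25% of all, and Msmb was -2.98 ± 1.31 (limma adjusted p = 0.211).

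Within the first batch, 6 normal prostates against 5 tumours, 7 of 9 probe sets were lower, against 3.04% of all. The differences there were -7.96 for Cdcp3, -7.41 for Agr2, -7.19 for Wfdc3, -6.75 for both Pbsn and Azgp1, -5.37 for Msmb and -1.70 for Tgm4. The second batch, 3 against 4 and including normal prostate 9, gave -5.88 for Cdcp3, -4.41 for Wfdc3, -4.15 for Azgp1, -4.13 for Pbsn, -4.07 for Agr2 and -2.16 for Msmb, and 0.70 for Tgm4. No member passed the test there, and 1 probe set of the whole table did (0.00222%), with 4265 of 45037 at an unadjusted p under 0.05 in limma. Without normal prostate 9, an alternative chosen after the data were seen, that batch gave -8.14 ± 0.72 for Cdcp3 (limma adjusted p = 0.0378) and -6.77 ± 0.43 for Wfdc3 (limma adjusted p = 0.0137), the 2 members called lower, against 0.0289% of all probe sets.

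**Figure D4:**
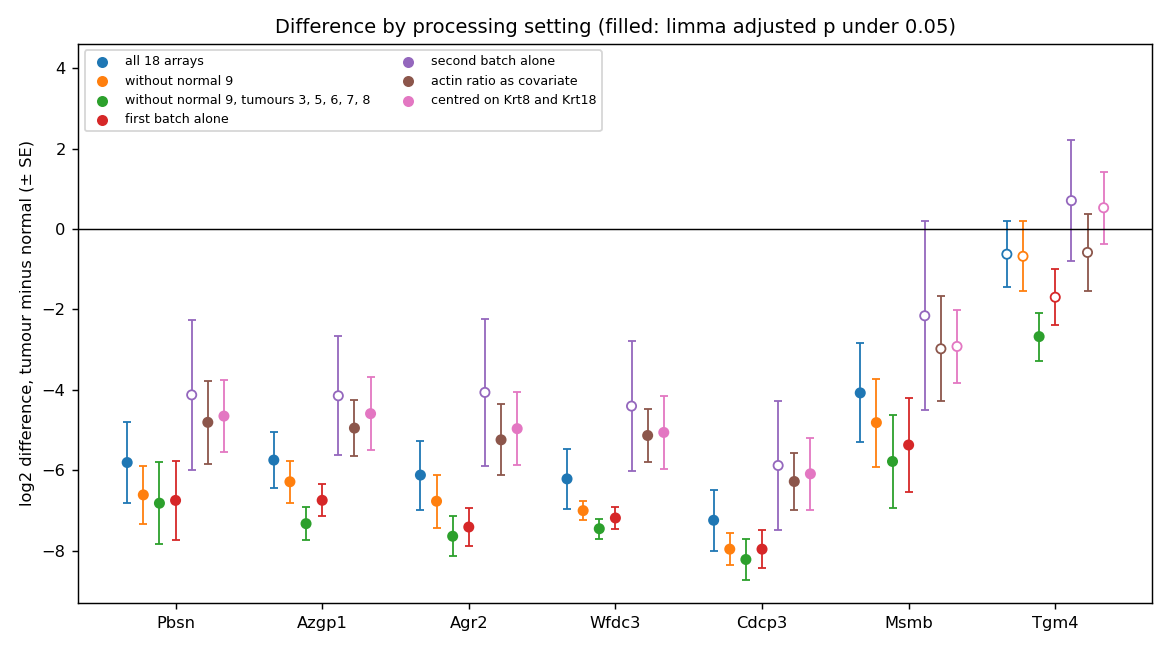
Log2 difference, tumour minus normal prostate, with its SE, for the 7 genes in 7 settings, filled where the limma adjusted p was under 0.05. Pbsn, Azgp1, Agr2, Wfdc3 and Cdcp3 are below -4 in all 7 settings shown, Msmb is filled in 4 of them, and Tgm4 lies on both sides of 0.

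The relatives of these genes are read against the 7.44% of all genes that were lower. Of 15 other lipocalin genes, relatives of Pbsn, 1 was lower, C8g, a subunit of the complement system, at -1.49 ± 0.38 (limma adjusted p = 0.0162), and the median was -0.28. None of 12 other genes with the whey acidic protein fold passed the test (median 0.073): Wfdc1 had -0.90 and Wfdc15b 1.90, with limma adjusted p of 0.131 and 0.298. Of 7 other transglutaminase genes 1 was lower, Tgm5 at -1.43 ± 0.45 (limma adjusted p = 0.0462), with a median of -0.44. Of 17 genes of disulfide bond formation in the endoplasmic reticulum, where Agr2 acts, 3 were lower: Dnajc10 at -1.73, Pdia6 at -1.57 and Pdia4 at -1.21, with limma adjusted p of 0.0220, 0.0223 and 0.00233, and a median of -0.44 over the list.

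Among 25 other genes for products of the prostate secretory cell, 7 were lower and 1 higher, with a median of -0.16. Over all genes 7.44% were lower and 6.91% higher. Abo, the blood group glycosyltransferase, had -6.37 ± 0.73, Egf, for epidermal growth factor, -4.41 ± 0.46, and Mme, a membrane peptidase, -4.29 ± 0.74. Nupr1 had -3.47 ± 0.64, Spink1, a trypsin inhibitor, -5.49 ± 1.54, Pigr, the receptor that carries immunoglobulin A into secretions, -4.50 ± 1.19, and Acpp, the prostatic acid phosphatase, -2.34 ± 0.53. The gene that was higher was Ctsz, a lysosomal peptidase, at 0.92 ± 0.24. Spink1, Pigr, Acpp and Ctsz were named after their values were seen.

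Of 16 transcription factors and stress sensors of secretory cells 2 were lower, with a median of -0.31, beside 7.44% of all genes lower and a median of -0.0036. Bhlha15, a factor that enlarges the secretory apparatus, had -3.66 ± 0.85 and Creb3l4, a membrane-bound factor of the prostate, -2.26 ± 0.47, with limma adjusted p of 0.00866 and 0.00435. Spdef, a factor of secretory epithelium, had -2.23 ± 0.72 and a limma adjusted p of 0.0501. Gata2 went the other way, at 1.18 ± 0.43 (limma adjusted p = 0.0789), and neither of these 2 genes was called. Of 16 genes of the androgen response 5 were lower and 1 higher, with a median of -1.12: Slc45a3 had -2.51 ± 0.54, Fkbp5 -1.51 ± 0.31 and Tsc22d3 -1.30 ± 0.30. Rhou had -1.39 ± 0.42 and Zbtb16 -1.21 ± 0.36, both named after their values were seen, and Camkk2 was higher by 0.88 ± 0.22.

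The genes whose values followed each member most closely, after the group means were subtracted, were ranked over 18 arrays, a description shaped by normal prostate 9 and tumours 6 and 8. For Azgp1 they were Gne (r = 0.965), the first enzyme of sialic acid synthesis, then Smco4, Pgap2, Slc45a3 and Slc26a4. Agr2 was followed by Grhl1 (0.967), an epithelial transcription factor, then Gne, Pigr, Timp4 and Tor3a. Gne itself differed by -3.80 ± 0.50 between the groups (SE; limma adjusted p = 0.000129), with 10.46 and 10.33 in tumours 6 and 8 and 9.68 in normal prostate 9.

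Wfdc3 and Cdcp3 shared Mug1 (r = 0.926 and 0.927), a protease inhibitor of the macroglobulin family, and Slc45a3 (0.894 and 0.930). Wfdc3 was also followed by Cadps2, Eif2d and Carmil2, and Cdcp3 by Slc26a4 (0.939), Cited2 and Rnf186. Mug1 went from 11.86 ± 2.98 to 5.01 ± 0.44 (SD, n = 9 each), and tumours 6 and 8 had 4.54 and 5.22, no higher than tumour 9 at 5.46. Pbsn and Msmb shared H2-Q10 (0.853 and 0.909), a class I histocompatibility gene, whose highest normal prostates were 4, 7, 5 and 1 at 12.51, 11.32, 11.18 and 10.81. Xab2, Grin3b, Ttpal and Eif2d came next for Pbsn, and Nrf1, Pop5, Usp16 and Timp4 for Msmb. Tgm4 was followed by Rasl12 (0.893), Prkd2, Tcaf2, Phxr4 and Rbm43, none of which passed the test between the groups. None of its 5 genes was shared with the other members.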

How the data were processed

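Per the labels' protocols, Trizol was used to extract total RNA of 9 normal prostates and 9 TRAMP tumours, which was labelled with biotin for Affymetrix arrays. Per the submitters' processing notes the authors used MAS5, and the deposited file holds linear intensities. No MAS5 version is given here. MAS5 scales each array by 1 factor: the 2% trimmed mean of the deposited intensities was 500 on every array. It leaves dim probe sets noisy.

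Groups and replicate numbers came from the labels. Of 45101 probe sets, 34945 name 1 gene, 932 several and 9160 none, and 64 controls were left out. Log2(intensity + 16) was fitted by group over 45037 probe sets in R 4.3.3 with lmFit and eBayes of limma 3.58.1, two-sided, with Benjamini-Hochberg adjustment and a threshold of 0.05. The code was tested on simulated data. Exact permutation tests used all 48620 splits into 9 and 9, with 4.11e-05 the smallest p they can give. A fold bound was taken against the 40th percentile of the dim arrays.

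The members and gene lists were chosen with earlier results of these data known. Named genes were all members, from each list at most 4 genes ranked by absolute t, and for each member the 5 genes with the highest Pearson correlation after group means were subtracted, among genes whose mean was above the 40th percentile. Of 262 list genes, 37 had no probe set of their own and are not analysed here. Alternatives were pseudocounts of 1 and 64, a filter on low values, other normalizations and centrings, a trend with robust eBayes, a replicate block, unique probe sets alone, the mean of a gene's probe sets, a block for the batch, each batch by itself, covariates, and omission of arrays. Python 3.11.15 and matplotlib 3.10.9 made the figures.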

Additional observations from a re-analysis of the deposited data

Results flagged for a closer look

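Each member probe set was checked in each group of 9 arrays for a highest or lowest array far from its neighbour relative to the range of the group. Of the 18 sets checked, 5 held such an array, and it was normal prostate 9 as the lowest each time. Azgp1 was 9.66 there, with the next normal prostate at 12.98. Agr2 was 6.95, with the next at 11.04, and its second probe set was 6.71, with the next at 10.81. Wfdc3 was 7.25, with the next at 13.51, and Cdcp3 was 7.46, with the next at 11.86. By chance about 5% of such sets are picked out, and these 5 share 1 array, so they are not separate events. The same array had 4.18 in Pbsn and 5.63 in Msmb, the lowest of its group in both, which were not picked out because those genes vary widely among normal prostates.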

How the results depend on the processing

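The count of 7 of 9 probe sets lower in tumours stayed between 6 and 8 (of 7 and 8 tested under the filter and with unique probe sets) in all alternatives but the second batch alone (0) and that batch without normal prostate 9 (2), where few arrays remain. Over the table, 5172 probe sets were called, 2398 lower and 2774 higher. These 3 counts became 587, 42 and 545 centred on luminal keratins; 2836, 1367 and 1469 in the first batch; 1, 1 and 0 in the second; 17, 13 and 4 in the second without normal prostate 9; 2197, 1014 and 1183 with the actin ratio; 8004, 3619 and 4385 with the seminal vesicle covariate; and 9497, 4693 and 4804 without normal prostate 9 and tumours 3, 5, 6, 7 and 8. Centring on housekeeping genes gave 1532 higher, and leaving out tumours 1 and 9 gave 1594 lower. The share of calls that were higher was 53.6%, and 41.0%, 31.7% and 92.8% when centred on the 75th percentile, housekeeping genes and keratins. Genes with groups wholly apart numbered 0, and 1 with housekeeping centring, 5 without normal prostate 9 (also without tumours 3, 5 and 7), and 7 without tumours 6 and 8 as well. Keratin centring adds 1 amount to every difference, which puts the second Wfdc3 probe set at 0.87 and Tgm4 at 0.53. Tgm4 also turned in the second batch (0.70; 0.49 without normal prostate 9); the cause was not tested. With a replicate block 6 of 9 were lower and 4303 called, and Msmb had a limma adjusted p of 0.0525. After group means were subtracted, same-numbered arrays correlated over 0.1 in 1 of 9 pairs (-0.077 to 0.3497) and best with their own number in 1. Differences among the tumours could hide a pairing, so these correlations cannot decide whether the numbers pair the samples. Signal over background limits Pbsn, dim in all tumours.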
